A study of Drosophila melanogaster and Drosophila pseudoobscura and Drosophila virilis with 4 samples.

Results

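Open chromatin of the eye-antennal imaginal disc was compared between *Drosophila virilis* and *D. melanogaster*, species of the subgenera *Drosophila* and *Sophophora*. FAIRE-Seq was done on discs of wandering larvae of the last larval stage raised at 25 °C. *D. melanogaster* was represented by the wild-type strain Canton S and by a strain that carries P{neoFRT}82B (FRT82), a recombination target site used to make clones, with 1 library each. *D. virilis* was represented by 1 library of the sequenced strain. All 19424 peaks of the deposited table entered the comparison, and 3 of the 4 libraries were used, since *D. pseudoobscura* was left out.

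In FAIRE (formaldehyde-assisted isolation of regulatory elements), proteins are cross-linked to DNA, the chromatin is sheared and extracted with phenol, and the DNA that carries few nucleosomes stays in the aqueous phase. A region with many reads is therefore more open, as active enhancers and promoters are. The eye-antennal disc is the larval epithelium that gives rise to the eye, the antenna and much of the head capsule. At the wandering stage it holds dividing precursors and, behind the morphogenetic furrow, differentiating photoreceptors, so that a peak averages over several cell types. More cells of a type and more open chromatin per cell cannot be told apart in such a sample.

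Each peak has a read count and an RPKM value (reads scaled by peak length and library size, normalized between libraries by the authors) at positions of *D. melanogaster* release 5. The peaks held 3407230 reads in Canton S, 1386805 in FRT82 and 3009250 in *D. virilis*, with medians of 113, 44 and 98 reads per peak. Counting alone gives an error of 9.41%, 15.1% and 10.1% at those medians, so that FRT82 is the least precise library. The lowest values were 1.95 RPKM in Canton S, 1.75 RPKM in FRT82 and 2.35 RPKM in *D. virilis*, and no peak was without reads. A region that is open only in *D. virilis* and has no counterpart in *D. melanogaster* is not among these peaks. No gene annotation of release 5 was used here. Genes are therefore named only at loci whose windows the study gives. These loci number 6, and all other peaks are named by position.

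The *D. virilis* ratio was defined at each peak as log2 of its RPKM minus the mean log2 RPKM of Canton S and FRT82. The strain difference, log2 of FRT82 over Canton S at the same peak, served as the only measure of error, because no strain or species was sequenced in replicate. It holds genetic, rearing and technical differences together. *D. virilis* has no second library, and the tests assume that it varies as the 2 strains do. The main test pools the spread of the strains over peaks. A call therefore does not show that the ratio exceeds the strain difference at that peak.

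The species differed at more peaks, and by more, than the strains did. The median absolute *D. virilis* ratio was 0.68 on the log2 scale, against 0.38 between the strains. The median absolute deviation of the *D. virilis* ratio was 1.00, and that of the strain difference was 0.49 once rescaled to 1 library against a mean of 2, a spread 2.04 times as wide. *D. virilis* was 2-fold or more higher at 3244 peaks (16.7%) and 2-fold or more lower at 3281 (16.9%), whereas the strains were 2-fold or more apart in either direction at 1891 (9.74%). The gap widened with the size of the difference. At 4-fold, *D. virilis* was higher at 796 peaks and lower at 643, against 34 and 46 for FRT82. At 8-fold the counts were 96 and 73, against 0 and 3. At 16-fold they were 15 and 5, and the strains had none. The median over all peaks was -0.02 for the *D. virilis* ratio and 0.01 for the strain difference. Such balance is partly a property of the deposited values, since 62.6% of the Canton S values occur to 9 decimals in *D. virilis* as well and values of equal rank in these libraries differed by a median of 0.0331 on the log2 scale. A species difference in the total amount of open chromatin cannot be seen in them.

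**Figure D1:**
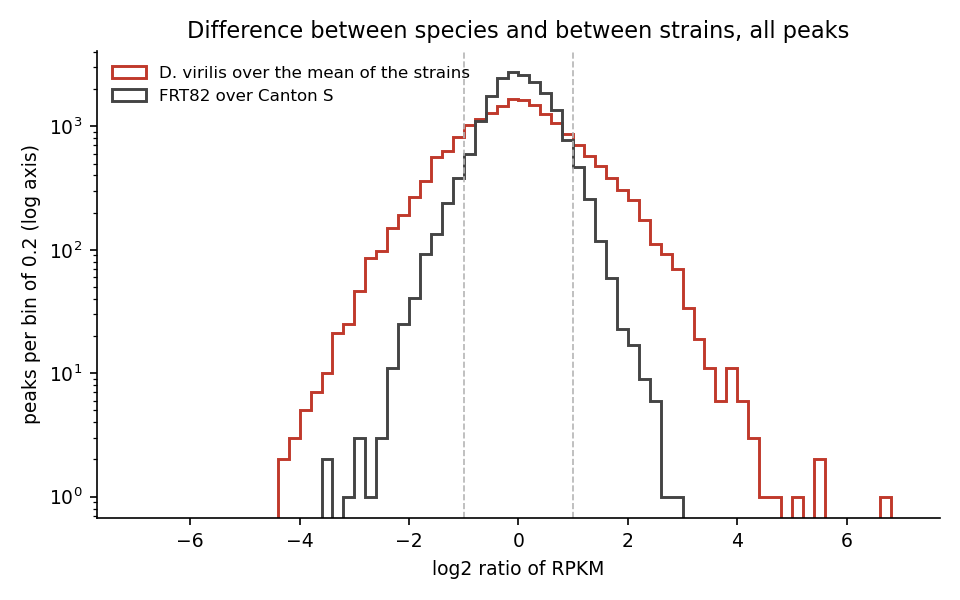
Histogram of the log2 ratio of *D. virilis* to the mean of the strains, and of that of FRT82 over Canton S, at 19424 peaks, in bins of 0.2 with a log vertical axis and dashed lines at 2-fold. The *D. virilis* ratio has the wider tails, with 796 and 643 peaks at 4-fold or more against 34 and 46 between the strains.

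On the read counts, the quasi-likelihood test of edgeR (Benjamini-Hochberg adjustment over all peaks) called 2292 peaks higher in *D. virilis* (11.8%) and 2466 lower (12.7%), together 4758 (24.5%) at an adjusted p under 0.05. The median absolute RPKM ratio of the peaks called higher was 1.77 on the log2 scale, and the median ratio of those called lower was -1.62. Every called peak had the same sign in RPKM as in counts. An RPKM ratio of 2-fold or more was found at 2209 of the peaks called higher and at 2376 of those called lower. DESeq2 called fewer, 569 higher and 863 lower, and all 1432 of these were among the edgeR calls.

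At 3522 peaks (18.1%) *D. virilis* fell between Canton S and FRT82, at 7819 it was above both and at 8083 below both. If the libraries all varied alike, each would be the middle one equally often. *D. virilis* would then also lie outside both strains at most peaks, so that these counts are not counts of species differences. Counting error gave 4.79% of the variance of the *D. virilis* ratio and 25.7% of that of the strain difference. Of the 3597 peaks in the upper quartile of both strains, 2222 (61.8%) were in the upper quartile of *D. virilis*, and 261 were in its lower quartile. In the other direction, 435 peaks of the upper quartile of *D. virilis* (43.2 RPKM or more) were in the lower quartile of both strains (15.9 RPKM or less in Canton S and 16.2 RPKM or less in FRT82). The like swaps between single strains numbered 25 and 12, although these need only 1 library on each side.

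**Figure D2:**
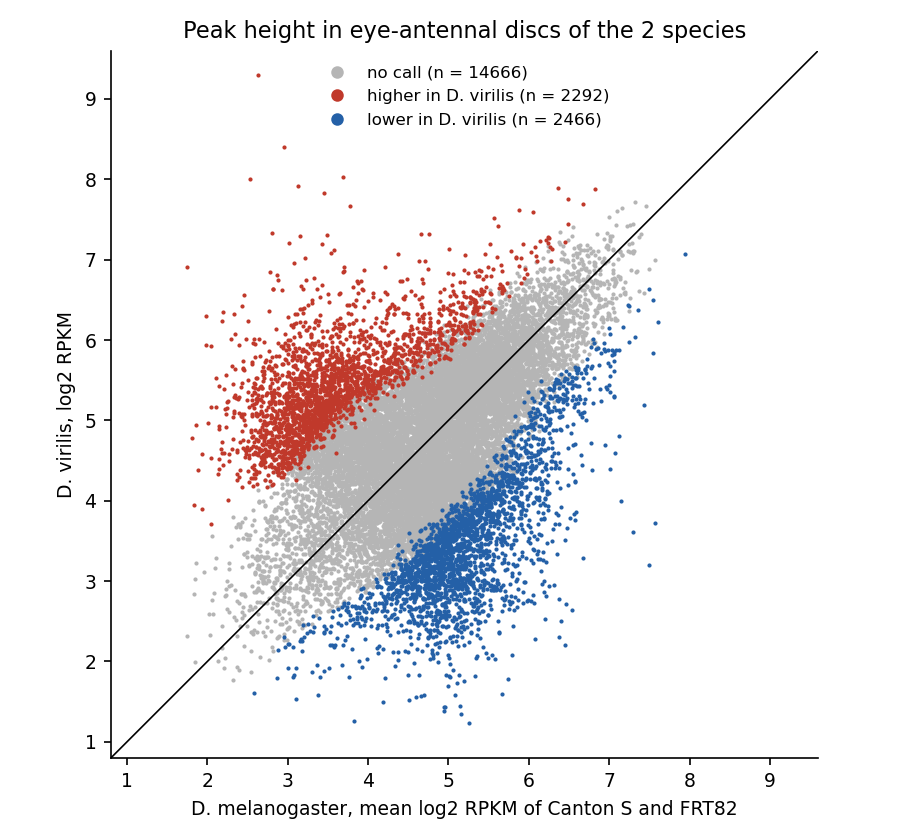
Height of each of 19424 peaks in *D. virilis* (log2 RPKM) against *D. melanogaster* (mean log2 RPKM of 2 strains), with the line of equality and the edgeR calls in colour. The 2292 peaks called higher and the 2466 called lower lie on opposite sides of the line, and 1 peak at the top reaches 631 RPKM in *D. virilis*. At the ends only 1 direction is seen, since none of the 10 highest of *D. melanogaster* was called higher and none of the 10 highest of *D. virilis* lower.

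The most open peaks of the species overlapped in part. Of the 1000 highest peaks of *D. virilis*, 436 were among the 1000 highest of Canton S and 435 among those of FRT82, whereas 675 of the 1000 highest of Canton S were among those of FRT82. With wider limits, 778 of them were among the 5000 highest of Canton S and 875 among its 10000 highest, out of 19424 peaks. The last limit lies near the middle of the list, so that such a rank does not show a strongly open peak. No peak was among the 10 highest of both species. These extreme peaks were chosen for their height, so that their differences are descriptions. Of the 10 highest of *D. melanogaster*, 7 were called lower in *D. virilis* and none higher, and their *D. virilis* values ran from 9.23 to 204 RPKM. Of the 10 highest of *D. virilis*, 9 were called higher, and 6 of these 10 were under 20 RPKM in both strains. The highest peak of *D. melanogaster*, on 3R from 13526414 to 13526638, had 272 RPKM in Canton S, 224 RPKM in FRT82 and 134 RPKM in *D. virilis*. It remained a strong peak in all 3 libraries.

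The largest ratio belonged to a peak on the X chromosome from 22295622 to 22296121, which is also the highest peak of *D. virilis*. It had 4.37 RPKM in Canton S, 8.78 RPKM in FRT82 and 631 RPKM in *D. virilis*. The reads behind these values were 44, 26 and 2731. Its RPKM ratio was 6.67 on the log2 scale, 102-fold. On the read counts it was smaller, with an edgeR log2 fold change of 5.91. On 3L, the peak from 20083897 to 20084243 had 4.31 RPKM in Canton S, 7.80 RPKM in FRT82 and 256 RPKM in *D. virilis*, a ratio of 5.46. On 2L, the peak from 16991299 to 16991543 had 8.63, 6.99 and 339 RPKM in the same order, a ratio of 5.45. On chromosome 4, the peak from 363347 to 363928 had 7.12, 10.7 and 242 RPKM, a ratio of 4.79. In each of these the strains were close to the bottom of the table while *D. virilis* was near its top. On the counts, edgeR's log2 fold changes were 5.03 on 3L, 5.19 on 2L and 4.4 on chromosome 4, each below the RPKM ratio. The highest ratios on 2R and 3R were 4.35 (13589736 to 13589906) and 4.38 (168401 to 168570).

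Among the called peaks with 10 or more reads in every library, the lowest ratio was smaller in size than the highest. It was found on 2R from 6320061 to 6320247, with 205 RPKM in Canton S, 159 RPKM in FRT82 and 9.23 RPKM in *D. virilis*. The reads numbered 414, 152 and 20. It is 1 of the 10 highest peaks of *D. melanogaster*, and the ratio of -4.29 makes it 19.6-fold higher there. The lowest on 3R, from 14889871 to 14890134, had 61.2 RPKM, 113 RPKM and 4.93 RPKM in Canton S, FRT82 and *D. virilis*, a ratio of -4.07. The lowest of the other arms were -3.69 on 3L (3394481 to 3394635), -3.67 on 2L (1185584 to 1185888), -3.60 on the X (6173654 to 6173995) and -3.15 on chromosome 4 (509686 to 509944). In each of these 6 peaks *D. virilis* was below both strains by more than the strains were apart.

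Called peaks at which the strains hardly differed were listed as well. The 5 steadiest peaks with a *D. virilis* height of 50 RPKM or more, called higher and at least 2-fold apart, included 1 on 2L from 5080697 to 5081273, with 8.15 RPKM in Canton S, 8.17 RPKM in FRT82 and 63.9 RPKM in *D. virilis*, and another on 2L from 4055647 to 4056212, with 25.8, 25.7 and 104.8 RPKM. The 5 steadiest in the other direction included 1 on 3R from 635780 to 636113, with 152 RPKM in Canton S, 151 RPKM in FRT82 and 63.0 RPKM in *D. virilis*. The ratio ran from 1.77 to 3.99 over the 5 higher peaks and from -1.89 to -1.05 over the 5 lower ones. The peak with 3.99, on 3R from 4197373 to 4197546, had only 17 reads in Canton S and 5 in FRT82. These peaks were chosen for a small strain difference, so that their closeness in *D. melanogaster* is not a result.

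The share of called peaks varied with peak height. Peaks were put into 8 classes of 2428 by height, taken as the mean of the 2 species on the log2 scale so that the class does not favour a direction. A high class needs both species to be high, however, and a strong peak lost in 1 species drops to a lower class, so that the classes are set partly by the difference itself and the shares are a description. The share called was 36.8% in the lowest class (3.79 to 14.5 RPKM), 37.2% in the next and 13.8% in the highest (50.3 to 189 RPKM). The median absolute ratio was 0.86 in the lowest class, 1.06 in the next and 0.38 in the highest. The strain difference was also smaller in high peaks. Relative to it, the spread of the *D. virilis* ratio was 1.95 times as wide in the lowest class and 1.71 times in the highest. It did not fall steadily, with 2.45 times in the second and the fifth class and 1.6 times in the seventh. The direction also varied, with 12.8% called higher and 24.0% lower in the lowest class and 7.13% higher and 5.15% lower in the seventh. The strains were 2-fold or more apart at 19.2% of peaks in the lowest class and at 0.783% in the highest.

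Long peaks and peaks in crowded regions differed less. The share called was 27.0% among the shortest of 6 length classes (151 to 184 bp) and 18.9% among the longest (542 to 3029 bp), where the strain share of 2-fold differences also fell, from 15.4% to 3.00%. Of the 712 peaks with no other peak within 10 kb, 38.3% were called, 120 higher and 153 lower. Of the 2890 peaks with 10 or more neighbours within 10 kb, 19.9% were called. The median absolute ratio was 0.97 in the isolated and 0.61 in the crowded peaks, against 0.45 and 0.34 for the strain difference. Isolated peaks were also lower and shorter, with medians of 22.8 RPKM in *D. melanogaster* and 255 bp against 29.6 RPKM and 311 bp, and the part of height and length in the difference was not tested.

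The chromosome arms of *Drosophila* are conserved as units, so that a gene tends to stay on the same arm while its order along the arm is shuffled. The autosomal arms 2L, 2R, 3L and 3R were alike, with 23.7%, 24.0%, 24.4% and 23.1% of their peaks called and median absolute ratios between 0.64 and 0.68. On the X chromosome 28.2% of 2289 peaks were called, 327 higher and 319 lower, and the median absolute ratio was 0.77. The strains did not show such a gap, with a median absolute difference of 0.38 on the X and on the autosomal arms together. Median ratios were near 0 on every large arm, from -0.07 on 3L to 0.01 on 2R. The X was above the autosomal arms in both directions, with 14.3% against 11.3% called higher and 13.9% against 12.4% called lower. X peaks were shorter than those of the autosomal arms (medians of 261 and 295 bp). Within classes of equal length, the share called was higher on the X in 5 of 6, and within classes of equal height in 6 of 8. The gap was wider among weak peaks. It was widest in the height class from 17.8 to 20.8 RPKM, where 37.4% of X peaks were called against 27.8% on the autosomal arms. There 23.5% against 13.9% were called higher in *D. virilis*, while 13.9% were called lower on both. In the highest class the shares called were 13.9% on both. The excess of higher calls did not hold in every height class. The X had fewer in the fifth (10.8% against 13.8%), sixth (6.38% against 8.95%) and highest (5.79% against 7.25%) classes, and more in the others.

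**Figure D3:**
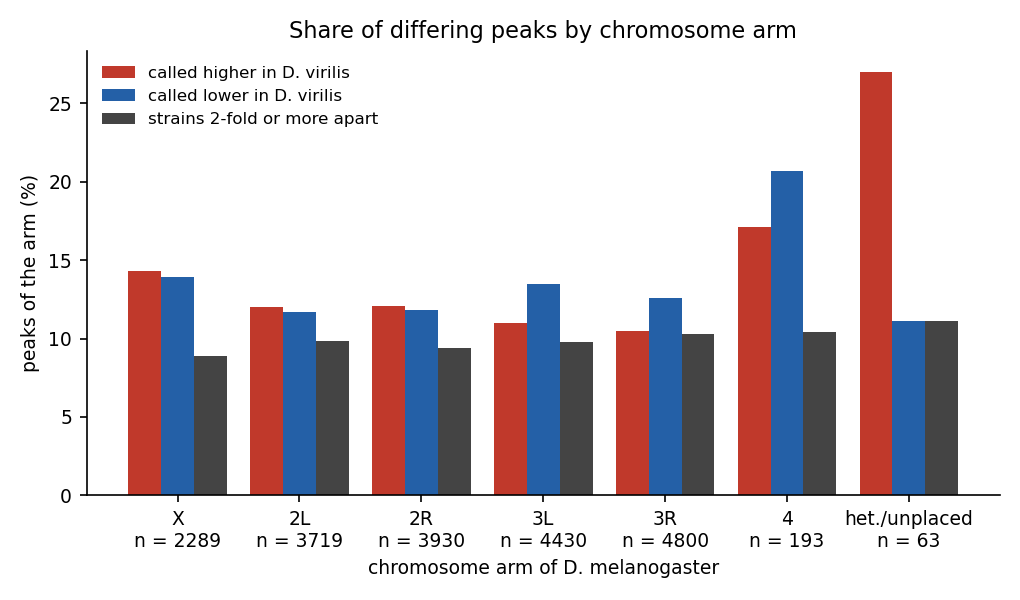
Percent of the peaks of each chromosome arm called higher or lower in *D. virilis* by edgeR, beside the percent at which the strains were 2-fold or more apart, with the number of peaks under each arm. The X (28.2% called in all) and chromosome 4 (37.8%) stand above the autosomal arms (23.1% to 24.4%), whereas the strain bars are level at 8.87% to 10.4% over these 6 arms.

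Chromosome 4, the dot chromosome, is packed with heterochromatin protein 1 in *D. melanogaster* although it carries active genes, and in *D. virilis* its counterpart largely lacks that protein. Of its 193 peaks, 33 were called higher and 40 lower (37.8%), and the median absolute ratio was 0.97. The strain difference was close to that of all peaks, with a median absolute value of 0.40 against 0.38. Its median ratio of -0.12 depended on the strain, since it was 0.02 with FRT82 alone as the reference and -0.33 with Canton S alone, and the strains themselves differed by a median of -0.27. The calls were not mixed evenly along the chromosome. In the first 800 kb, 9 of 103 peaks were called higher and 31 lower, with a median ratio of -0.35. Beyond that point, 24 of 90 were called higher and 9 lower, with a median ratio of 0.21. This was not even along the second stretch. The median ratio was 0.86 over the 28 peaks from 800 to 1000 kb and -0.0 over the 53 from 1000 to 1200 kb. Median heights fell from 27.0 to 19.6 RPKM in *D. melanogaster* between the 2 stretches, against 21.5 and 22.3 RPKM in *D. virilis*. The strain difference had medians of -0.19 in the first 800 kb and -0.29 beyond. The limit of 800 kb was set after the values were seen, so that no test was made. The 63 peaks on heterochromatic and unplaced sequence were called at a like rate (38.1%), 17 higher and 7 lower, and had a median ratio of 0.66.

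In stretches of 1 Mb with 20 or more peaks, of which there were 119, the median ratio varied with an SD of 0.16, against 0.112 for the strain difference. The lowest stretch was on the X from 20 to 21 Mb. There the median ratio was -0.82 over 34 peaks, of which 12 were called lower and 1 higher, against a median strain difference of -0.18. The stretch that follows it, from 21 to 22 Mb, had the highest median, 0.38 over 40 peaks, with 8 called higher and 4 lower. Both lie in the part of the X nearest to the centromere.

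Neighbouring peaks tended to differ in the same direction over short distances only. The Pearson correlation of the *D. virilis* ratio between adjacent peaks, which is across peaks and not across replicates, was 0.407 for 2835 pairs less than 200 bp apart, 0.193 for gaps of 500 to 1000 bp and 0.054 for gaps of 2 to 5 kb. The strain difference was more alike between neighbours at every distance, with 0.432, 0.320 and 0.175 over the same gaps. Reads of 1 sheared fragment can reach 2 adjacent peaks at the shortest gaps, and all pairs share the same 3 libraries. When a peak was called and the next lay within 200 bp, the next was called in the same direction in 30.9% of cases and in the opposite direction in 4.05%. At gaps of 10 to 30 kb these shares were 17.2% and 14.5%.

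**Figure D4:**
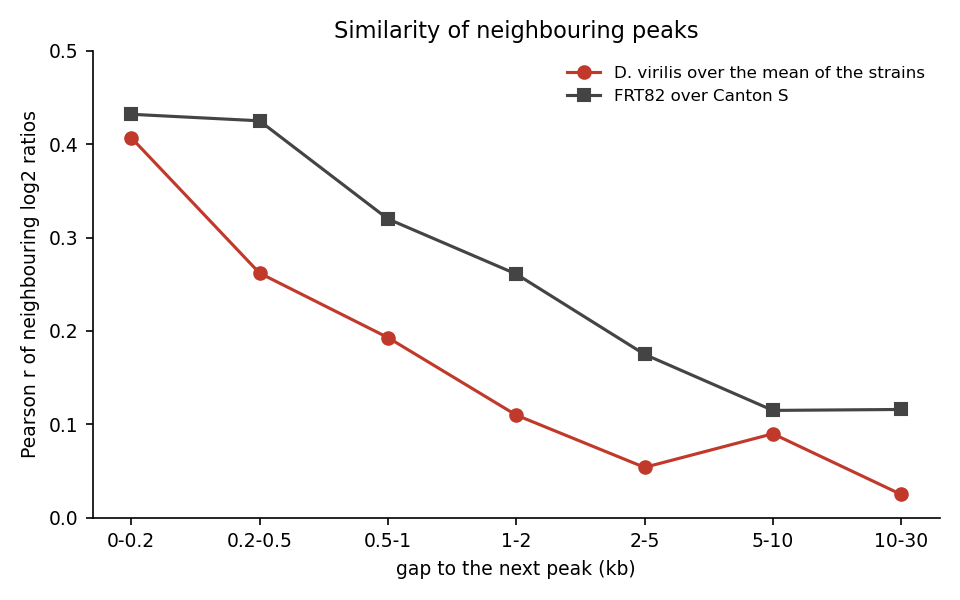
Pearson correlation of the log2 ratio between adjacent peaks by the gap between them in kb, for *D. virilis* over the mean of the strains and for FRT82 over Canton S. The *D. virilis* line falls from 0.407 to 0.025 and the strain line from 0.432 to 0.116.

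Most runs of called peaks held 1 peak. At shares of 11.8% called higher and 12.7% called lower, single calls are common even without clustering, and no such baseline was computed. Counting runs of adjacent peaks called in 1 direction with gaps of up to 10 kb, 1599 higher and 1683 lower runs held 1 peak, and 3 higher and 1 lower run held 6 peaks, the longest found. The longest higher run with the largest ratios was on the X from 22286896 to 22306142 and contains the highest *D. virilis* peak. Its 6 peaks had *D. virilis* values of 112, 631, 38.5, 41.7, 75.1 and 78.7 RPKM, in order, and mean *D. melanogaster* values between 3.99 and 14.1 RPKM. The 6 peaks on 3L from 20080798 to 20091386 had ratios from 1.78 to 5.46, and the 6 on 2L from 19538365 to 19546382 ratios from 1.19 to 2.41. In the runs on the X and 3L every peak had a mean of 14.1 RPKM or less in *D. melanogaster*, whereas the run on 2L included 1 peak of 36.8 RPKM there (19542443 to 19543160). The longest lower run, on 3L from 3253445 to 3267596, had *D. melanogaster* means between 28.0 and 97.6 RPKM and *D. virilis* values between 6.67 and 38.4 RPKM, with ratios from -2.20 to -1.32. Both directions occurred on chromosome 4, with a run of 5 lower peaks from 501983 to 511831 (median ratio -1.69) and a run of 5 higher peaks from 984035 to 994390 (median ratio 2.59).

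The 6 loci held 28 peaks, of which 1 was called higher and 7 lower in *D. virilis* (28.6%, against 24.5% of all peaks). Their symbols all matched the RefSeq gene table. The study chose these loci with its own results in view, so that the share says nothing of eye genes in general. The peaks at *so* were picked from these libraries as conserved ones.

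The gene *so* (*sine oculis*, 2R) encodes a homeodomain protein of the retinal determination network, and it is required for eye formation. Its 10 peaks were mostly alike between the species. The strongest in Canton S, from 3306026 to 3306340, had 109.6 RPKM there, 89.7 RPKM in FRT82 and 101.9 RPKM in *D. virilis*, so that *D. virilis* fell between the strains. At 9 of the 10 peaks edgeR made no call, with ratios from -0.72 to 0.71. The exception, from 3320590 to 3320876, had 10.4 RPKM in Canton S, 6.03 RPKM in FRT82 and 38.4 RPKM in *D. virilis*. The reads numbered 53, 10 and 124. It had the lowest height of the 10 in *D. melanogaster*, and edgeR's log2 fold change was 1.77 (SE 0.48, adjusted p = 0.00225 with Benjamini-Hochberg adjustment). DESeq2 did not call it (adjusted p = 0.0972).

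The gene *pdm3* (*pou domain motif 3*, 2R) encodes a POU-homeodomain transcription factor with known roles in neurons. The study shows this locus as an example of a gain in *D. melanogaster*, picked from these same libraries, so that its values are a description with no test. The first of its peaks, from 4281825 to 4282158, had 49.5 RPKM in Canton S, 61.8 RPKM in FRT82 and 8.39 RPKM in *D. virilis*. The ratio was -2.72. The second, from 4282213 to 4282442, had 40.7, 25.6 and 6.67 RPKM in the same order, a ratio of -2.27. The *D. virilis* values were below both strains at each.

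The single peak in the *fred* window (*friend of echinoid*, 2L), a gene for a cell adhesion protein related to Echinoid, an antagonist of EGFR signalling in the eye, was the most reduced of the 28. It lies from 3933766 to 3933989 and had 45.4 RPKM in Canton S, 62.7 RPKM in FRT82 and 3.44 RPKM in *D. virilis*, with 131, 74 and 7 reads, respectively. The ratio was -3.95. The *D. virilis* count is small and lies far below those of the strains. This peak, too, is shown by the study as gained in *D. melanogaster* in these libraries, so that no test is given.

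*Dscam* (*Dscam1* in the RefSeq table, 2R) encodes an immunoglobulin-family receptor with very many splice forms by which neurites recognize themselves. The window covered the region in which the study scored binding motifs for Atonal, the proneural factor of the first photoreceptor to form, R8. The study took it as a known case in which the *D. virilis* counterpart lost the Atonal site and its reporter activity. The region was thus not chosen without regard to direction. Its peak, from 3258671 to 3258844, had 44.2 RPKM in Canton S, 70.2 RPKM in FRT82 and 5.45 RPKM in *D. virilis*. The reads numbered 99, 64 and 9. *D. virilis* was lower by far more than the strains differed. The ratio was -3.35, and edgeR's log2 fold change was -3.60 (SE 0.64, adjusted p = 1.76e-06 with Benjamini-Hochberg adjustment, 4.11e-08 to 0.000478 over the alternatives).

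The gene *how* (*held out wings*, 3R) encodes an RNA-binding protein of the STAR family that acts in muscle, tendon and glial cells. The study shows this locus for a peak that is higher in *D. pseudoobscura*, picked from the same series. Of the 9 peaks at *how*, 3 were called lower and none higher. The strongest, from 17869637 to 17869983, had 77.9 RPKM in Canton S, 99.0 RPKM in FRT82 and 46.2 RPKM in *D. virilis*, and edgeR gave an adjusted p of 0.0438 with Benjamini-Hochberg adjustment. The peaks from 17876550 to 17876852 and from 17876881 to 17877216 had 9.11 and 6.96 RPKM in *D. virilis* and between 11.7 and 29.0 RPKM in the strains, with adjusted p of 0.0449 and 0.0122 from edgeR. None of these 3 calls held with DESeq2, which gave adjusted p of 0.220, 0.238 and 0.137. The other 6 peaks had ratios from -0.34 to 0.57.

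The gene *scrt* (*scratch*, 3L) encodes a zinc finger protein of neurons, photoreceptors among them. The study predicted a gain of binding sites for the photoreceptor factor Glass in *D. virilis* at a region upstream of this gene. In its reporter flies the *D. virilis* sequence was active in photoreceptors and that of *D. melanogaster* was not. None of the 5 peaks here overlaps that region, so that they do not show its openness. None of these 5 peaks was called. The ratios ran from -0.95 to 0.61, while FRT82 was below Canton S at all 5 by 0.55 to 2.15 on the log2 scale. At the peak from 3983143 to 3983509, Canton S had 34.8 RPKM, FRT82 had 7.83 RPKM and *D. virilis* had 19.7 RPKM, so that *D. virilis* lay between strains that differed more than 4-fold. The ratio of 0.26 there was well within the strain difference.

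**Figure D5:**
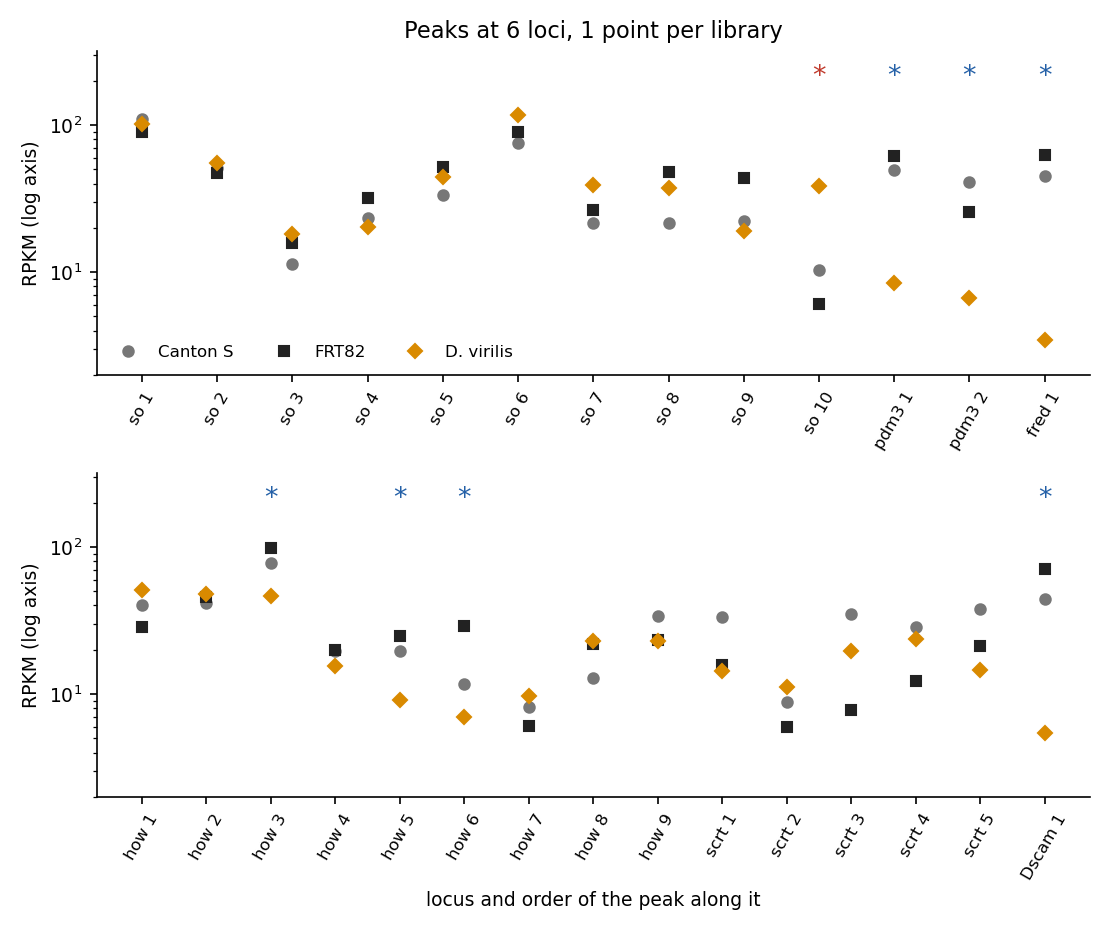
RPKM in Canton S, FRT82 and *D. virilis* at the 28 peaks of 6 loci in their order along each locus, on a log axis, with a red star for a peak called higher in *D. virilis* by edgeR and a blue star for one called lower. The *D. virilis* points lie far below both strains at *pdm3*, *fred* and *Dscam* (3.44 to 8.39 RPKM) and close to the strains at 9 of the 10 *so* peaks.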

How the data were processed

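FAIRE-Seq libraries of Canton S, FRT82 and *D. virilis* were used. The authors clipped adapters with FastX, mapped reads with Bowtie2 to the genome of each species (*D. melanogaster* release 5, *D. virilis* release 1), transferred the *D. virilis* alignments to *D. melanogaster* positions (liftOver, minMatch 0.1), ran F-Seq (length 200) on each library, gathered the peaks, and left out regions with no reads in a species, at or under 1 RPKM or of 150 bp or less. liftOver can lose *D. virilis* reads where the genomes do not align, and the effect on the values was not tested. The deposited counts are the authors' unstranded HTSeq reads per peak. The deposited RPKM values were normalized within and between libraries by the authors with a tool not given in the sources used here.

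Ratios were taken on log2 RPKM without a pseudocount. The test was edgeR's quasi-likelihood test on the counts of 3 libraries (TMM, no filter, Benjamini-Hochberg adjustment over 19424 peaks), with 1 residual degree of freedom per peak, the strain difference. The estimated coefficient of variation was 20.2%. The prior degrees of freedom were infinite. Each peak was therefore tested against a spread pooled over peaks and not against its own strain difference. The p-values measure only the spread between the 2 strains. The SE given with an edgeR log2 fold change is that change divided by the square root of its F statistic, without sign. It rests on the same pooled spread and not on replicates of *D. virilis*. edgeR was tested on simulated data first. Alternatives were DESeq2, limma with a trend, other size factors, thresholds, filters, a pseudocount, arm centring and leaving out each strain. Intervals for counting cover counting error only.

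Named peaks were those in the 6 windows, the 10 highest and lowest ratios among called peaks with 10 or more reads per library, the highest and lowest per arm, the 10 highest of each species, the 5 longest runs and the 5 steadiest peaks per direction, with ties between runs broken by the median ratio. The members, lists and rules were chosen with earlier results of these data known, and the species-balanced height classes after the values were seen. The RefSeq table (release 6) gave names only, and sequences were not used here. The 2 columns of *D. pseudoobscura* were left out. Calculations used Python 3.11.15, R 4.3.3, edgeR 4.0.16, limma 3.58.1 and DESeq2 1.42.0.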

Additional observations from a re-analysis of the deposited data

How the results depend on the processing

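Of the 71 peaks chosen by the naming rules other than that for runs, the 47 called ones kept their direction on TMM-scaled counts, with a pseudocount and without either strain. Many of them were chosen for an extreme ratio or for being called, so that a kept direction adds no support. Sizes did change, and the largest ratio went from 6.67 to 5.85 on TMM-scaled counts. The peaks of the runs were not recomputed. The number of calls moved most with the test. DESeq2 called 569 peaks higher and 863 lower among 17541 tested, against 2292 and 2466 with edgeR, and an adjusted p under 0.01 left 1298 and 1378. limma called 1703 higher and 2078 lower, and with each arm centred on its median 2040 and 1807, a split of 53.0% higher against 45.0% with limma uncentred and 48.2% with edgeR. The causes were not tested. The ratio of the spreads was 2.04, and 2.08 with standard deviations, 2.01 with 10 or more reads in each library and 1.96 in the peaks above the median height. The correlation between neighbours up to 500 bp apart was 0.334, 0.336 on TMM-scaled log2 counts and 0.289 as Spearman's rho. Without either strain in turn, 3326 to 3441 peaks were 2-fold or more higher and 3435 to 3594 lower. The range of the median ratio over the 6 arms, 0.13, was 0.10 to 0.31, the latter without FRT82. Leaving out a strain leaves no residual degree of freedom, so that these are values with no test. No paired analysis was possible because the labels number no samples. FRT82, with a median of 44 reads per peak, is the least precise library.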
